A study of Mus musculus with 6 samples.

Results

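The ErbB receptors and their EGF-family ligands were examined in murine mammary cells that had become resistant to an EGFR inhibitor. The set holds 10 genes of this family, the 4 receptors Egfr, Erbb2, Erbb3 and Erbb4 and the 6 ligands Egf, Tgfa, Areg, Ereg, Btc and Hbegf. Epigen and the neuregulins, which are also ErbB ligands, are not in the set and were read separately. Each gene was read from its brightest probe set that carries no other gene symbol. This gave values for 9 of the 10 genes, out of 19938 genes on the arrays, and Areg, for which the annotation used here names no probe set, was not analysed here. AGR cells were set against NME cells, with 3 Affymetrix Mouse Gene 1.0 ST arrays for each line. NME cells are normal murine mammary gland (NMuMG) cells transformed by stable viral overexpression of EGFR. AGR cells descend from a single NME colony that kept growing in 3D culture with 1 µM of the EGFR inhibitor AG1478, and they therefore carry the same EGFR transgene. The colony was expanded in 2D culture, and resistant lines were kept without drug, so the comparison is between lines and not between acute treatments. All AGR arrays come from 1 colony. Neither the labels nor the methods say that replicates were separate cultures, so the p-values refer to the scatter among arrays, which may be technical.

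ErbB receptors are receptor tyrosine kinases that pair with each other when a ligand binds, and the paired kinases start Ras-ERK and PI3K-AKT signaling. EGFR binds all 6 ligands of the set, ErbB2 has no known ligand of its own and serves as a partner, ErbB3 has a weak kinase and couples strongly to PI3K, and ErbB4 binds neuregulins as well as betacellulin, epiregulin and HB-EGF. The ligands are made as membrane proteins and are released by ADAM proteases. In the mammary gland this family drives duct growth and lobule formation, and EGFR and ErbB2 are targets of breast cancer drugs.

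The arrays of a line resembled each other closely, with correlations of log2 intensity of 0.995 to 0.997 within a line and 0.986 to 0.988 between lines across all 35557 probe sets. AGR replicate 2 stood apart most, with 36 genes differing more than 2-fold from the average of its fellow arrays, against 7 for AGR replicate 1 and at most 1 for every other array. The epithelial identity of both lines was checked with 9 markers. Of these, 7 lay above 7.61, the median log2 level of the arrays, in both lines, led by Krt8 and Krt18, while Epcam and Cldn7 lay below it. Their summed intensity ranged from 43940 to 45195 in AGR cells and from 55690 to 56301 in NME cells, and Cdh1 and Krt19 passed the test as lower in AGR cells (log2 FC -0.60 and -1.04, where FC is fold change). Defining markers of leukocytes (Ptprc), endothelium (Pecam1 and Cdh5) and adipocytes (Adipoq) lay below the median in both lines. Counting all measured markers, 2 of 6 immune, 1 of 6 endothelial, 1 of 5 adipocyte and 4 of 8 fibroblast markers lay above it in each line. Of 8 fibroblast markers Pdgfra was higher in AGR cells (log2 FC 0.39), of 6 macrophage and immune markers Cd68 and Csf1r were higher (0.96 and 0.28) and of 5 adipocyte markers Cidec was lower (-1.28). Of 6 endothelial markers 0 passed limma's test, 0 had an unadjusted p under 0.05 and 0 passed the methods' t-test, a plain two-sided test per gene of the kind that the study's methods name in general and not for the arrays. The summed intensity of the immune markers ranged from 1200 to 1236 in AGR cells and from 912.1 to 973.4 in NME cells, that of the adipocyte markers from 682.3 to 767.3 in AGR cells and from 1164 to 1362 in NME cells. The fibroblast and endothelial sums overlapped. The part of these markers in the results below was not tested. Arrays measure RNA from the whole culture, so fewer cells that express a gene and less RNA per cell cannot be told apart.

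AGR cells had less RNA of 1 receptor, ErbB3, and their ligand RNAs moved in opposite directions. Erbb3, Btc and Ereg were lower in AGR cells by 3.04-, 3.11- and 2.30-fold, and Hbegf was 1.58-fold higher. At an adjusted p under 0.05 from limma, with Benjamini-Hochberg adjustment over all genes, 4 of the 9 measured genes were called, 1 of the 4 receptors and 3 of the 5 ligands. Over all genes 24.2% were called, and 37.3% of those above the median level, where 8 of the 9 lie. By direction 3 were lower, where the background is 11.6%, and 1 was higher, where it is 12.6%. Those 3 were also the genes with a FC above 2, which 3.00% of all genes reached in either direction and 1.50% in the lower direction. The values of the AGR arrays did not overlap those of the NME arrays for 6 of the 9 genes, beside 36.4% of all genes. Of these 6, Egfr and Hbegf were higher (background 17.9%) and Erbb3, Tgfa, Ereg and Btc were lower (background 18.5%). The median log2 FC was -0.08 over the 9 genes and -0.02 over all genes.

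**Figure D1:**
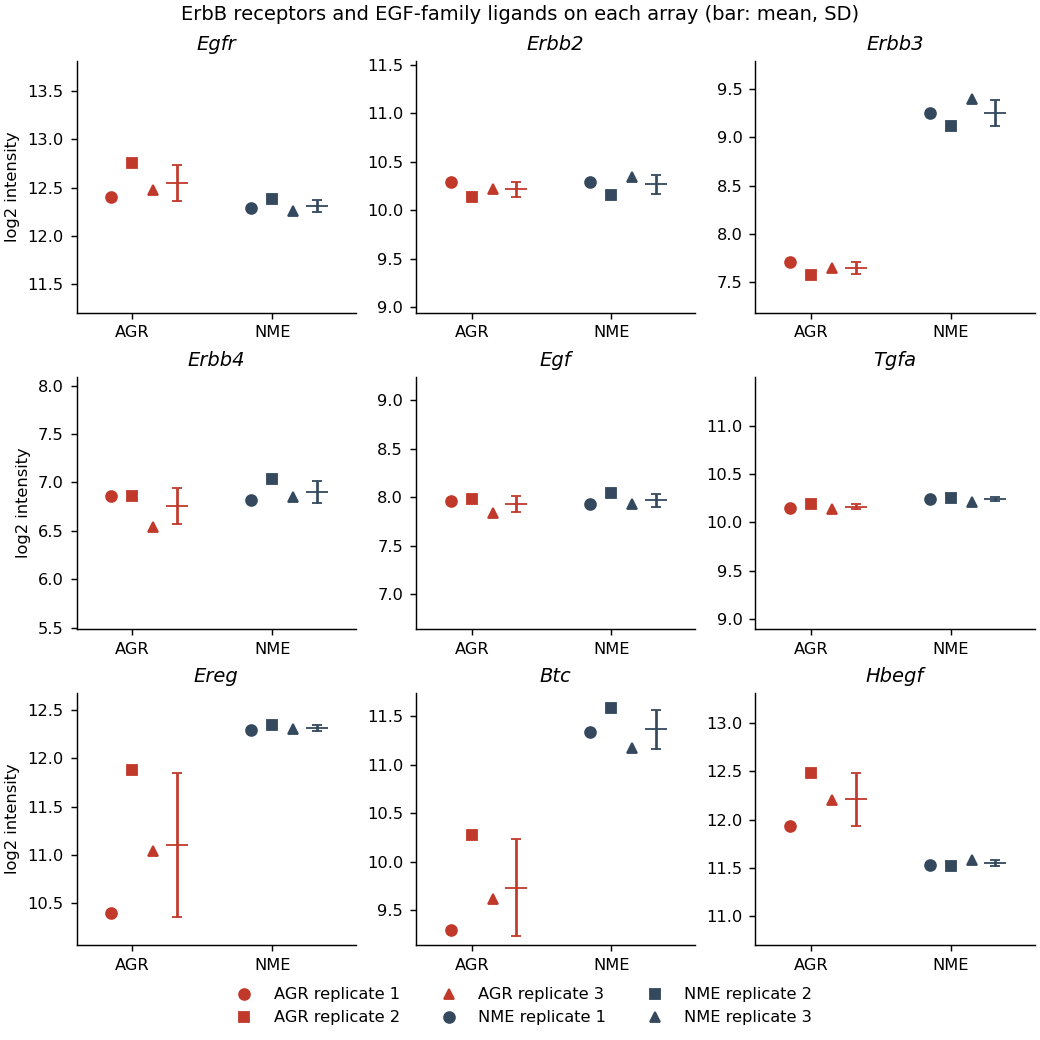
Log2 intensity (y axis, all panels 2.6 units high) of each measured receptor and ligand on the 3 AGR arrays (red) and the 3 NME arrays (blue), with mean and SD beside the points. Erbb3, Btc and Ereg lie lower in AGR cells without overlap and Hbegf lies higher, and Ereg and Btc spread widely among the AGR arrays.

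Among the receptors, the drug target itself was examined first. Egfr had log2 intensities of 12.40, 12.75 and 12.48 on the AGR arrays and of 12.29, 12.38 and 12.26 on the NME arrays. All AGR values lay above all NME values, though by little, and AGR replicate 2 was the highest. The log2 FC was 0.23 (SE 0.10, 95% interval 0.01 to 0.46), which had an adjusted p of 0.139 from limma and so did not pass. Without AGR replicate 2 it was 0.13. Both lines carry an introduced EGFR, whose species and sequence are not given in the sources used here, so the share of this signal that comes from the transgene was not tested.

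Erbb2, the gene for the partner receptor HER2, had log2 intensities of 10.29, 10.13 and 10.22 on the AGR arrays and of 10.29, 10.16 and 10.35 on the NME arrays. The groups overlapped, and the 95% interval of the log2 FC ran from -0.21 to 0.11 around -0.05 (adjusted p = 0.667 from limma). Erbb4, whose product binds neuregulins, had log2 intensities of 6.86, 6.86 and 6.54 on the AGR arrays and of 6.82, 7.03 and 6.85 on the NME arrays. Both lines were below the array median, a range in which low signal is hard to tell from background, and the log2 FC of -0.15 did not pass (adjusted p = 0.41 from limma).

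Erbb3, which encodes the member with a weak kinase that couples to PI3K, was the receptor that changed. It had log2 intensities of 7.71, 7.58 and 7.65 on the AGR arrays and of 9.24, 9.11 and 9.39 on the NME arrays. The 2 groups were separated by a wide gap, with AGR values close to the median of all probe sets. The log2 FC was -1.60 (SE 0.08, 95% interval -1.79 to -1.42, adjusted p = 2.6e-05 from limma), lower on 3 of 3 AGR arrays. The arrays of each line agreed well for this gene, with SDs of 0.06 in AGR cells and 0.14 in NME cells.

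**Figure D2:**
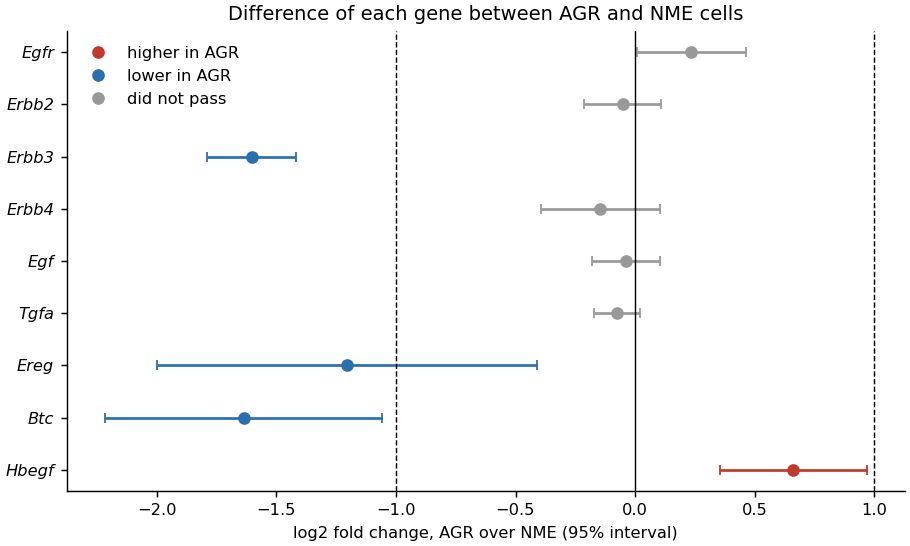
Log2 fold change of AGR over NME (x axis) of each measured receptor and ligand, with the 95% interval from limma, and dashed lines at a fold change of 2. Erbb3 at -1.60, Btc at -1.64 and Ereg at -1.20 lie to the left of 0, Hbegf at 0.66 lies to the right, and the intervals of Ereg and Btc are the widest.

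Among the ligands, betacellulin and epiregulin, which bind both EGFR and ErbB4, were lower in AGR cells. Btc had log2 intensities of 9.30, 10.28 and 9.62 on the AGR arrays and of 11.34, 11.58 and 11.18 on the NME arrays. Every AGR array lay below every NME array, although the AGR arrays differed among themselves, replicate 1 being the lowest and replicate 2 the highest. The log2 FC was -1.64 (SE 0.24, 95% interval -2.22 to -1.06, adjusted p = 0.0032 from limma), a 3.11-fold lower level. Without AGR replicate 2 it was -1.91 (adjusted p = 5.6e-04 from limma).

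Ereg had log2 intensities of 10.40, 11.88 and 11.04 on the AGR arrays and of 12.29, 12.34 and 12.30 on the NME arrays. The NME arrays lay within a narrow range while the AGR arrays were scattered below it, again with replicate 1 lowest and replicate 2 highest. The SD was 0.74 in AGR cells and 0.03 in NME cells. The log2 FC was -1.20 (SE 0.33, 95% interval -2.00 to -0.41), and the adjusted p of 0.0398 from limma was close to the threshold. Ereg passed in 9 of the 16 alternative analyses. Its adjusted p ranged from 0.002 without AGR replicate 2, where the log2 FC was -1.59, to 0.167 with the methods' t-test. It did not pass without AGR replicate 1 (0.0621) or 3 (0.142), nor without NME replicate 1 (0.123), 2 (0.131) or 3 (0.12), whereas the direction was the same in all 16.

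Hbegf, which encodes heparin-binding EGF-like growth factor, went the other way. It had log2 intensities of 11.94, 12.49 and 12.20 on the AGR arrays and of 11.54, 11.52 and 11.58 on the NME arrays. All AGR values were above all NME values. The log2 FC was 0.66 (SE 0.13, 95% interval 0.35 to 0.97, adjusted p = 0.0101 from limma), higher on 3 of 3 AGR arrays. It did not pass without AGR replicate 3 (adjusted p = 0.0502 from limma) or with the methods' t-test (adjusted p = 0.0727).

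The founding ligands of the family differed little between the lines. Tgfa, whose product is transforming growth factor α, had log2 intensities of 10.15, 10.19 and 10.14 on the AGR arrays and of 10.25, 10.26 and 10.22 on the NME arrays. The AGR values were all slightly lower, and the log2 FC of -0.08 (95% interval -0.17 to 0.02) did not pass (adjusted p = 0.249 from limma). Egf had log2 intensities of 7.97, 7.98 and 7.84 on the AGR arrays and of 7.93, 8.04 and 7.93 on the NME arrays. These overlapped, with a log2 FC of -0.04 and a 95% interval of -0.18 to 0.10, and both lines lay little above the median of all probe sets.

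The promoters of Btc, which was lower, and of Tgfa, whose difference did not pass, are shown because both hold E2-boxes (CAGGTG, or CACCTG on the other strand), the sequence that repressors of the Snail and ZEB families recognize. Both are 300 bases long, from 250 bases before to 50 after the start of the gene, from RefSeq on build GRCm38.p6, and E2-boxes are in capitals. Btc lies on the minus strand (chr5:91402945-91403244) and Tgfa on the plus strand (chr6:86194972-86195271).
Btc promoter: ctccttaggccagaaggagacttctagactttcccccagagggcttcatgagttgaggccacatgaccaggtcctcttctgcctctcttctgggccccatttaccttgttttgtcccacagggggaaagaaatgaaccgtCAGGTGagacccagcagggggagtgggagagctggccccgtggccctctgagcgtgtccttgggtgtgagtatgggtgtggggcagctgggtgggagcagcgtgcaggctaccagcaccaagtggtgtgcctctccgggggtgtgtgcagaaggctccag
Tgfa promoter: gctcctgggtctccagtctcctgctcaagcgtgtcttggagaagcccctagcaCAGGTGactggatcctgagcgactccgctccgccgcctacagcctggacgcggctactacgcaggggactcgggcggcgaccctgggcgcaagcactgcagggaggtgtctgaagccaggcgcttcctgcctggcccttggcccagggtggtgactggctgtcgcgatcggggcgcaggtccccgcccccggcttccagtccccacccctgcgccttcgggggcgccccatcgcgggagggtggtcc
Each held 1 E2-box, which began 110 bases before the start in Btc and 197 bases before it in Tgfa. Promoters of 7 of the 10 genes were searched, and those of Erbb3, Ereg and Hbegf were not. The counts therefore leave out Hbegf, the member called higher in AGR cells, as well as Erbb3 and Ereg. An E2-box was present in 3 of the 7 (Btc, Tgfa and Areg), and in 20.2% of the 32851 promoters of this length that were searched. The AP-1 motif TGANTCA, searched on both strands, was found in 0 of the 7 and in 7.81% of the promoters searched. The windows differed more in their number of CpG sites, with 5 for Btc and 24 for Tgfa. These matches describe the letters only and show no binding.

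The position of the genes was then examined, with the nearest 3 measured genes on each side. Of the 6 neighbours of Erbb3, on chromosome 10, 1 was called, Rab5b, with a log2 FC of -0.32, and the others lay between -0.17 and -0.02. Ereg and Btc are adjacent among the measured genes on chromosome 5, in a cluster of EGF-family ligands. Epgn, the epigen gene on the other side of Ereg, had a log2 intensity of 6.04 in both lines, less than the array median. The next 3 genes beyond Btc, Parm1, Rchy1 and Thap6, all fell, by 0.78, 0.67 and 0.52 on the log2 scale, with adjusted p-values of 3.7e-05, 0.003 and 0.0017 from limma.

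A window of 10 measured genes on each side of this pair was added after the values had been seen. Beyond Btc, 4 of 10 genes were lower and the other 6 did not pass, with Uso1 as the fourth at -0.35. Before Ereg, 5 of 10 were lower and 1 was higher. Of all genes 11.6% were lower, and no test was made of these small windows. The side before Ereg holds chemokine genes, among them Cxcl5, Cxcl1 and Cxcl2 with log2 FCs of -1.41, -1.05 and -1.70, and Ppbp with 3.79. Cxcl2 and Cxcl15 (log2 FC -0.96), both among the lower genes before Ereg, were below the array median in both lines, where their exact FCs are uncertain. Mthfd2l, between the chemokine genes and Ereg, had log2 intensities of 9.95 in AGR cells and 9.96 in NME cells. Its log2 FC was -0.02, so the lowered genes did not form an unbroken run. Epgn, also between them, had a log2 FC of 0.00 but lay below the array median, where a fall could be missed. Around the other members the called neighbour with a FC above 2 was Add2, beside Tgfa, with a log2 FC of 1.49. Of the 6 neighbours of Hbegf, 3 were called higher, Ankhd1, Pfdn1 and Slc4a9, with log2 FCs of 0.59, 0.40 and 0.39. Cystm1 was called lower with -0.35. Over all members 19 of 48 distinct neighbours that are not members were called, 8 higher and 11 lower. That share of 39.6% stands beside 24.2% of all genes and 37.3% of the genes above the median level. The neighbours include genes below the median level, so neither share is matched to them, and the difference was not tested.

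**Figure D3:**
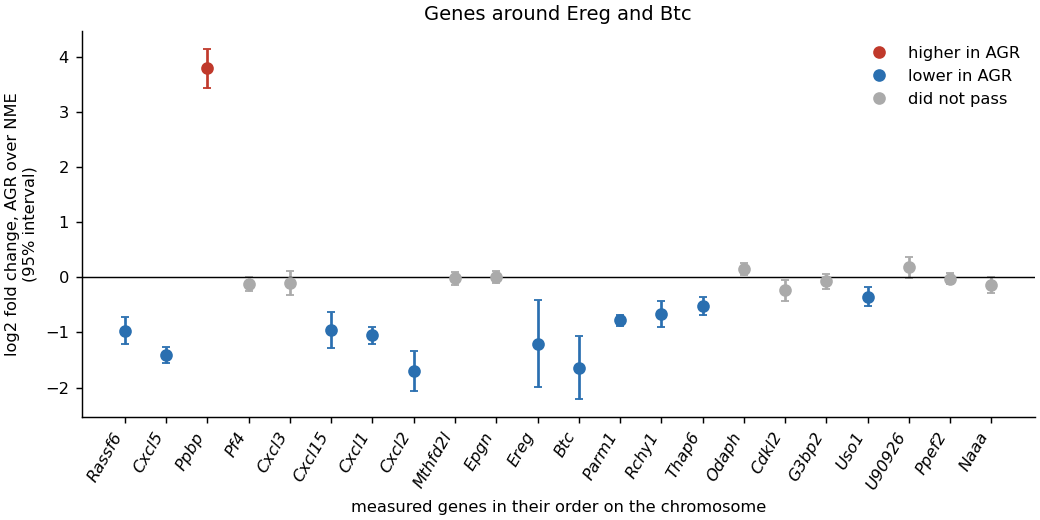
Log2 fold change of AGR over NME (y axis, with 95% interval) of the measured genes around Ereg and Btc in their order on chromosome 5 (x axis, not to scale in distance). Ereg, Btc and the 3 genes after Btc are lower in AGR cells, Mthfd2l and Epgn lie at 0, and Ppbp is higher at 3.79.

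The other genes of the pathway were read from 5 lists chosen by role. Of 79 genes 73 were measured, and 34 of these (46.6%) were called, 20 higher and 14 lower, beside 24.2% of all genes and 37.3% of the genes above the median level. Without NME replicate 1 there were 20 calls and without NME replicate 3 there were 22. The remaining ErbB ligands, epigen and the neuregulins, gave 0 calls out of 5 with limma, 1 at an unadjusted p under 0.05 (Nrg4) and 0 with the methods' t-test. Nrg1, which encodes a ligand of ErbB3 and ErbB4, had log2 intensities of 11.01 ± 0.19 in AGR cells and 10.87 ± 0.06 in NME cells (SD, n = 3 each). The log2 FC of 0.14 did not pass (adjusted p = 0.379 from limma). The groups overlapped, and both lines were far above the array median.

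Genes that release or transport the ligands rose or did not pass. Of 12, 5 were higher and 7 did not pass. Over all genes 12.6% were higher and 24.2% were called in either direction. Of the genes above the median level, where 10 of the 12 lie, 37.3% were called. The difference was not tested. Adam12, a metalloprotease that can shed HB-EGF, had log2 intensities of 9.73, 10.05 and 9.88 on the AGR arrays and of 7.98, 8.01 and 7.79 on the NME arrays. This gap of almost 2 log2 units was the largest on the 5 lists, and the log2 FC of 1.96 had an SE of 0.10 and, from limma, an adjusted p of 2.6e-05. Adam8 rose with a log2 FC of 0.73, Frmd8, which encodes a binding partner of the iRhom proteins, with 0.65, Adam15 with 0.49 and Adam9 with 0.20. Adam17 and Adam10, which encode the main sheddases of the family, had log2 FCs of 0.12 and -0.09 that did not pass. The 12 genes had a median log2 FC of 0.08, and Frmd8 did not pass with the methods' t-test. The higher calls numbered 4 without NME replicate 1, NME replicate 3 or AGR replicate 3, where Adam9 did not pass.

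Of 13 negative regulators of the receptors, 4 were higher and 3 were lower, beside 12.6% and 11.6% of all genes. Of the genes above the median level, where 11 of the 13 lie, 37.3% were called in either direction. Sh3kbp1, whose product CIN85 works with Cbl in the uptake of activated EGFR, was 2.57-fold higher (log2 FC 1.36, adjusted p = 3.3e-06 from limma). Its deposited value was identical on the 3 NME arrays, which gives an SD of 0 there. The ubiquitin ligase genes Cbl and Cblb had log2 FCs of 0.49 and 0.43, and Lrig1, which encodes a membrane inhibitor of ErbB receptors, had 0.72. Those that fell were Errfi1, the feedback inhibitor known as MIG6, with a log2 FC of -0.33, and the phosphatase genes Ptpn12 and Ptprj with -0.27 and -0.26. The lower calls were not stable. They numbered 0 without NME replicate 1, 2 or 3 or AGR replicate 3, 0 with the methods' t-test, 1 without AGR replicate 1 and 1 with the replicate block, while the 4 higher calls numbered 4 without any 1 array.

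Of 26 adaptors and transducers measured, 7 were higher, 6 were lower and 13 did not pass, with FCs under 2 throughout. Over all genes 12.6% were higher and 11.6% lower. Of the genes above the median level, where 25 of the 26 lie, 37.3% were called in either direction. The higher calls numbered 3 without NME replicate 1 or AGR replicate 3 and 4 without NME replicate 2 or AGR replicate 1, and the lower calls 3 without NME replicate 1 or 3. Pik3cb, a catalytic subunit of PI3K, had the strongest increase with a log2 FC of 0.66, and Plcg1 and Pik3ca had 0.34 and 0.33. Vav3 was called with 0.30 but lay below the array median in both lines, where its exact FC is uncertain. Grb7, an adaptor gene that lies close to Erbb2 on chromosome 11, had log2 intensities of 10.27 ± 0.38 in AGR cells and 11.08 ± 0.12 in NME cells (SD, n = 3 each), a log2 FC of -0.80. Pik3r1, which encodes a regulatory subunit of PI3K, fell by 0.56 on the log2 scale, Sos2 by 0.49 and Shc1 by 0.36. Grb7, Sos2, Shc1, Plcg1, Pik3ca and Vav3 did not pass with the methods' t-test.

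Genes that ERK signaling induces moved in both directions. Of 17, 4 were higher and 5 were lower, with a median log2 FC of -0.05. Over all genes 12.6% were higher and 11.6% lower. Of the genes above the median level, where all 17 lie, 37.3% were called in either direction. The lower calls numbered 2 without NME replicate 1 or 3 and 3 without NME replicate 2 or AGR replicate 3, while the higher calls numbered 4 or 5 without any 1 array. Fos, an immediate-early gene, had log2 intensities of 7.86, 7.84 and 7.79 on the AGR arrays and of 9.52, 9.30 and 9.65 on the NME arrays. It was 3.16-fold lower (log2 FC -1.66, adjusted p = 4.2e-05 from limma). Among the feedback regulators Spry4, Dusp6 and Spred1 had log2 FCs of -0.77, -0.53 and -0.52 and Phlda1 had -0.60, while Dusp5 had 0.85. Ccnd1, which encodes cyclin D1, had a log2 FC of 0.76, Etv5 of 0.73 and Etv4 of 0.53. With the methods' t-test Dusp5, Dusp6, Spry4, Spred1, Etv5 and Phlda1 did not pass.

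**Figure D4:**
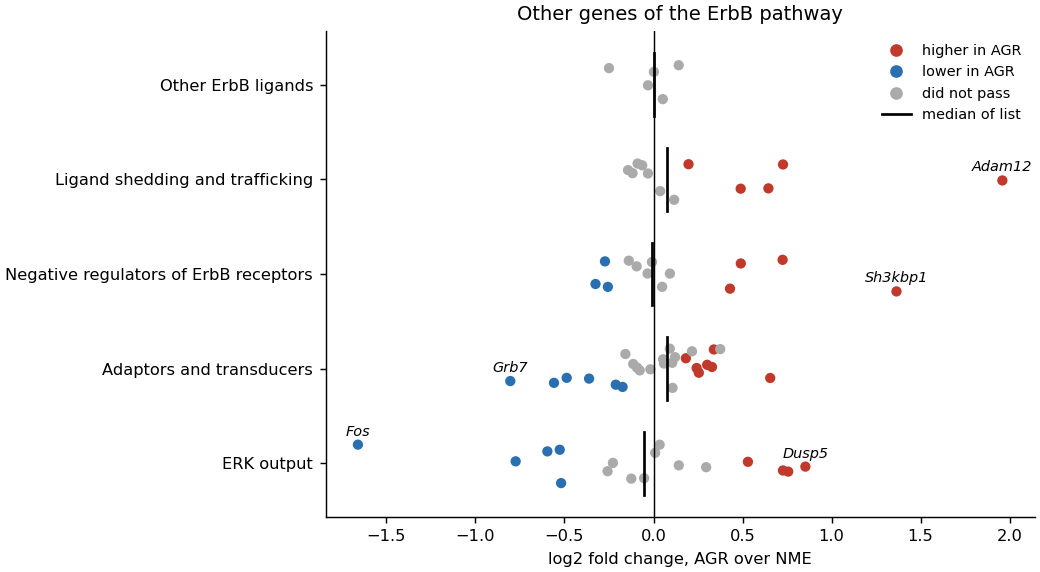
Log2 fold change of AGR over NME (x axis) of each measured gene of 5 ErbB pathway lists, coloured by whether it passed at an adjusted p under 0.05 from limma, with the median of each list as a black line. Adam12 at 1.96 and Sh3kbp1 at 1.36 stand out as higher and Fos at -1.66 as lower in AGR cells, and the list medians lie between -0.05 and 0.08.

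The spread between AGR arrays had a common order in several of these genes. The SD among AGR arrays was above 0.15 for 5 of the 9 members (Egfr, Erbb4, Ereg, Btc and Hbegf), as it was for 16.7% of all genes. In 4 of these 5, all but Erbb4, AGR replicate 1 was the lowest and AGR replicate 2 the highest. The same order was found in 12 of the 13 ERK-induced genes above this SD and in 34.9% of all genes above it. The limit of 0.15 was chosen after the values had been seen, and genes on the same arrays are not independent. Erbb3 did not share this order and had AGR values within 0.13 log2 units of each other.

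**Figure D5:**
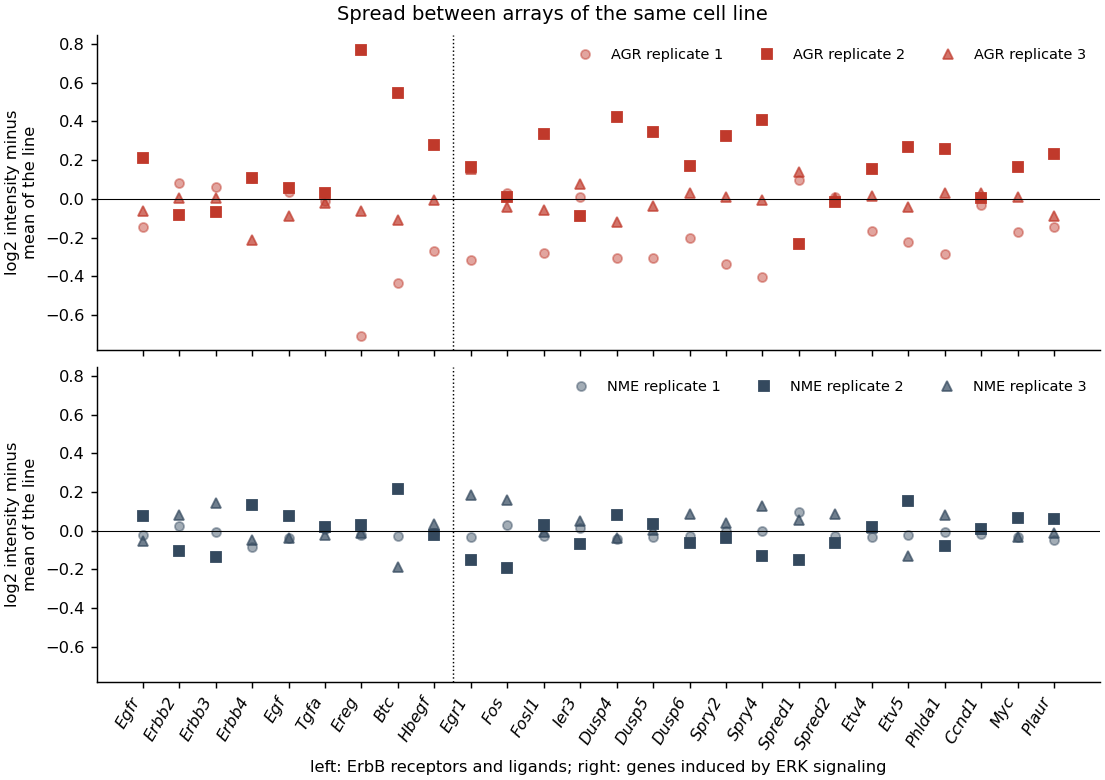
Log2 intensity minus the mean of the line (y axis) for each receptor and ligand and each ERK-induced gene (x axis), with AGR arrays in the upper panel and NME arrays in the lower panel. For Egfr, Ereg, Btc, Hbegf and most ERK-induced genes AGR replicate 2 lies above and AGR replicate 1 below the mean. The NME arrays spread less for these genes, whereas for Erbb2, Erbb3, Fos and Spred2 they spread more than the AGR arrays.

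Finally, the genes with the profile most like the called members with the 3 largest changes were found by Pearson correlation of log2 intensity over the 6 arrays, as a description. For Btc these were Rnf185, Ftsj1 and Ero1a (r of 0.998 to 0.999), for Erbb3 Khnyn, Romo1 and Cib1 (r of 0.999 to 1.00), and for Ereg Tmem120b, Ppp1r15a and Snrnp27 (r of 0.998 to 0.999). All 6 arrays are shared between the genes, and so is the split between the lines. The changes of these genes were smaller than those of the members they resemble. The largest was that of Ero1a with a log2 FC of -0.97, and that of Ftsj1 was -0.09.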

How the data were processed

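Total RNA of AGR and NME cells was labelled with biotin and hybridized to Affymetrix Mouse Gene 1.0 ST arrays, with 3 arrays for each line. The authors deposited processed, linear intensities. The submitters' processing notes name MAS5 but give no settings. Since mismatch probes are lacking on these arrays, the normalization is not settled. Median intensities lay between 190.4 and 200.8. In 31.3% of genes at least 2 arrays held the same value, and SDs of such genes may be too small.

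Log2 was taken without an offset. A gene was its brightest probe set with 1 symbol. Of 35557 probe sets, 21789 carried 1 symbol, 1621 several and 12147 none. For 19856 of 19938 genes the gene ID matched a RefSeq table (GRCm38.p6), used for order only. The lines were tested with limma 3.58.1 in R 4.3.3, adjusted by Benjamini-Hochberg over 19938 genes at a threshold of 0.05. The FC threshold of 2 is that of the study. Named were all members, all called genes of a list (the 4 largest changes where more than 5 moved 1 way), called neighbours with a FC above 2 and the 3 most similar genes. Other named genes, such as Parm1, Rchy1, Thap6, Rab5b and genes of the wider window, were chosen after their values were seen. Members and lists were chosen with earlier results of these data known. The alternatives were other normalizations (quantile, median centring), filters on dim genes, the mean of a gene's probe sets, all probe sets, an offset of 16, eBayes with trend, the methods' t-test, the replicate block and each array left out. Steps were tested on simulated data. The number of arrays limits the precision, and no detection calls came with them.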

Additional observations from a re-analysis of the deposited data

How the results depend on the processing

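The calls of Erbb3 and Btc held under all 16 alternatives, with log2 FCs of -1.67 to -1.53 for Erbb3 and -1.91 to -1.42 for Btc. Egfr, Erbb2, Erbb4, Egf and Tgfa passed under none of theirs. Hbegf passed in 14 of 16, with log2 FCs of 0.52 to 0.80. Ereg passed in 9 of 16, and lost its call without any 1 of NME replicates 1, 2 and 3 and AGR replicates 1 and 3 (adjusted p of 0.0621 to 0.142), with the methods' t-test (0.167) and with all probe sets tested (0.0744), the last added after the data were seen. Over the arrays left out in turn, 0 to 1 members were called higher and 2 to 3 lower, and the called genes numbered 20 to 35 on the pathway lists (20 without NME replicate 1 and 22 without NME replicate 3, against 34), 13 to 21 among neighbours and 3458 to 5356 over all genes. The methods' t-test called 0 members higher, 2 lower, 19 pathway genes and 12 neighbours. The cause of these losses was not tested. The replicate block called 5040 genes, 1 member higher and 3 lower. Same-numbered arrays had correlations of their deviations of -0.13, 0.33 and 0.26, and those of differently numbered arrays ran from -0.47 to 0.36. Whether same-numbered arrays were processed together was not tested. Each measured member has 1 probe set of its own. The mean over a gene's probe sets therefore left the members' log2 FCs as they were and moved their adjusted p-values through the other genes alone, and a separate fit of further probe sets was not run. Values below the array median, as of Erbb4, Vav3, Cxcl2 and Cxcl15, are hard to separate from background.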
